A study of Mus musculus with 15 samples.

Results

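The interleukin 1 family was followed in mouse tumours through 10 genes: the agonists Il1a, Il1b, Il18 and Il33, the antagonists Il1rn and Il18bp, the receptors Il1r1, Il1r2 and Il1rl1, and the shared receptor subunit Il1rap. They were taken by symbol through their Ensembl identifiers, and all 10 were present among the 17712 genes of the deposited table. Messenger RNA came from 15 tumours of MC38, a colon carcinoma line of C57BL/6 origin, grown under the skin of C57BL/6 mice to about 5 mm and excised 24 h after a single 100 µL dose placed in the tumour. Control tumours (n = 3) received vehicle, which was PBS with 5% DMSO and 5% glucose. The other groups received 50 µg of BO-112 (n = 4), 100 µg of DMXAA (n = 4), or 50 µg of BO-112 together with 100 µg of DMXAA (n = 4). BO-112 carries poly I:C, a synthetic stand-in for viral double-stranded RNA, on a polymer. DMXAA is an agonist of mouse STING, the adaptor of cytosolic DNA sensing. The labels give neither the age nor the sex of the mice, and each tumour holds host cells beside the MC38 cells.

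Interleukin 1 alpha and beta both bind the receptor encoded by Il1r1, which signals once the accessory chain Il1rap joins it, through MyD88 and the IRAK kinases to NF-kB. The receptor antagonist Il1rn occupies the same receptor without recruiting the accessory chain, and the decoy receptor Il1r2 binds the cytokines without signalling. Interleukin 18, which drives interferon gamma in lymphocytes, is neutralised by the soluble protein Il18bp, and interleukin 33, a nuclear alarmin of stromal cells, signals through Il1rl1, also called ST2, again with Il1rap. Interleukin 1 beta and interleukin 18 are made as precursors that caspase-1 cleaves, so RNA levels are not levels of active cytokine.

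Levels are CPM, reads scaled to a common library total, given as mean ± SD between tumours, and changes are log2 fold changes ± SE. Tests used limma on all 15 libraries, with p-values adjusted over the 17712 genes by the Benjamini-Hochberg method and a threshold of 0.05. The libraries held between 12725316 and 19660511 reads. Member genes had between 2 reads (Il1a in DMXAA 2) and 14039 reads (Il1rn in BO-112 1) per library. DMXAA 2 and DMXAA 3 stood apart by transcript length: relative to the average of all remaining libraries, the shortest 25% of genes had a median log2 excess of 0.58 and 0.34 there, and of -0.17 to 0.09 elsewhere. Summed skeletal muscle markers reached 179 CPM in vehicle 2, 520 in BO-112 1, 895 in DMXAA 1 and 440 in DMXAA 3, with at most 34.6 in any other library. Epithelial markers were measured for 5 of 10 listed genes and summed to 28.5 to 85.8 CPM in vehicle and 7.88 to 12.6 CPM with BO-112. Most of that sum was Cdh1, at 45.2 ± 32.4 CPM in vehicle and 8.42 ± 2.61 with BO-112, and Epcam had 20 to 45 and 2 to 5 reads. Krt19, Krt20 and Cdh17 had vehicle means of 0.116, 0.186 and 0.438 CPM, so the sum cannot serve as a measure of the carcinoma cells. With BO-112 2 of the 5 fell and 1 rose, Krt20 (1.60 ± 0.50, adjusted p = 0.0491), beside 4.31% of all genes called lower and 7.64% called higher.

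The promoters of Il1rn, the gene that moved most with BO-112, and of the receptor subunit Il1rap, which passed in no comparison of all 15 libraries, are printed to show what their start regions hold. RefSeq gives 15 start sites for the 10 genes on build GRCm38.p6, each with 250 bases before and 50 after the start. Il1rn lies on chromosome 2, as do Il1a and Il1b, and Il1rap on chromosome 16. Both strands were searched for an NF-kB type motif (GGGA, any 4 bases, CC) and for the core of an interferon-stimulated response element (GAAA, any 2 bases, GAAA), and capitals mark a match.
Il1rn, first start, chr2:24336610-24336909, plus strand: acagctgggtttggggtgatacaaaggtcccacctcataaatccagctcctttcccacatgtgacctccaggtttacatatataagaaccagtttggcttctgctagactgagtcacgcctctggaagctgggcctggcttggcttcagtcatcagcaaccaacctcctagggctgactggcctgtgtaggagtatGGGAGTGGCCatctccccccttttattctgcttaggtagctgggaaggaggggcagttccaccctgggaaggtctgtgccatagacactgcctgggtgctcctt
Il1rn, second start, chr2:24345041-24345340, plus strand: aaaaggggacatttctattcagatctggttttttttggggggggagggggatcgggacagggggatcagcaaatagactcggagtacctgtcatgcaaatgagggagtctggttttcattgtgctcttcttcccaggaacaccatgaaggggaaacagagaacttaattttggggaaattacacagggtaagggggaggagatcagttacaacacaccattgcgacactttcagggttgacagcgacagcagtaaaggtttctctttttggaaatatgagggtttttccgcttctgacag
Il1rap, chr16:26581455-26581754, plus strand: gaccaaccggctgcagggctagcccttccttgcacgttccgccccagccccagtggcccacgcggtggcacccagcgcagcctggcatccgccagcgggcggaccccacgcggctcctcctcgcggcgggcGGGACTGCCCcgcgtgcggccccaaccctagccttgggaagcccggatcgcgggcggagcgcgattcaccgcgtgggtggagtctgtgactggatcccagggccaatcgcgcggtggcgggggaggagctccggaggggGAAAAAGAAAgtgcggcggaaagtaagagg

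The first Il1rn start held GGGAGTGGCC with its first base at -54 from the start site, and the other Il1rn starts held no match to either motif. Il1rap held GGGACTGCCC at -119 and GAAAAAGAAA at 20. No other member held a match to either motif at any start. Among all 32851 promoters of the table, 20.7% held the NF-kB type motif and 3.44% the response element core. Among the 15091 promoters of measured genes the shares were 26.1% and 3.22%. TTCNNNGAA, the palindrome that STAT dimers bind, was held by 8.3% of promoters and among the members by Il1r2 alone. No match means that these letters were absent from a window of 300 bases and says nothing of the factors.

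Against vehicle, 6 of the 10 members rose with BO-112, where 7.64% of all genes were called higher, 4.31% lower and 11.9% in either direction. They were Il1a, Il1b, Il1rn, Il18, Il18bp and Il1rl1. With DMXAA 1 member rose, Il1rn, where 1.08% of all genes did and 1.25% were called in either direction. With both agents 2 rose, Il1rn and Il18bp, where 2.49% of all genes did and 2.67% were called in either direction. The median member change was 1.26 with BO-112, 0.86 with DMXAA and 1.21 with both, while the medians over all genes were -0.04, 0.01 and -0.01. The tumour ranges of 6, 4 and 7 members lay apart from those of vehicle, which held for 35%, 11.5% and 16.5% of all genes. All of these comparisons use the same 3 vehicle tumours.

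**Figure D1:**
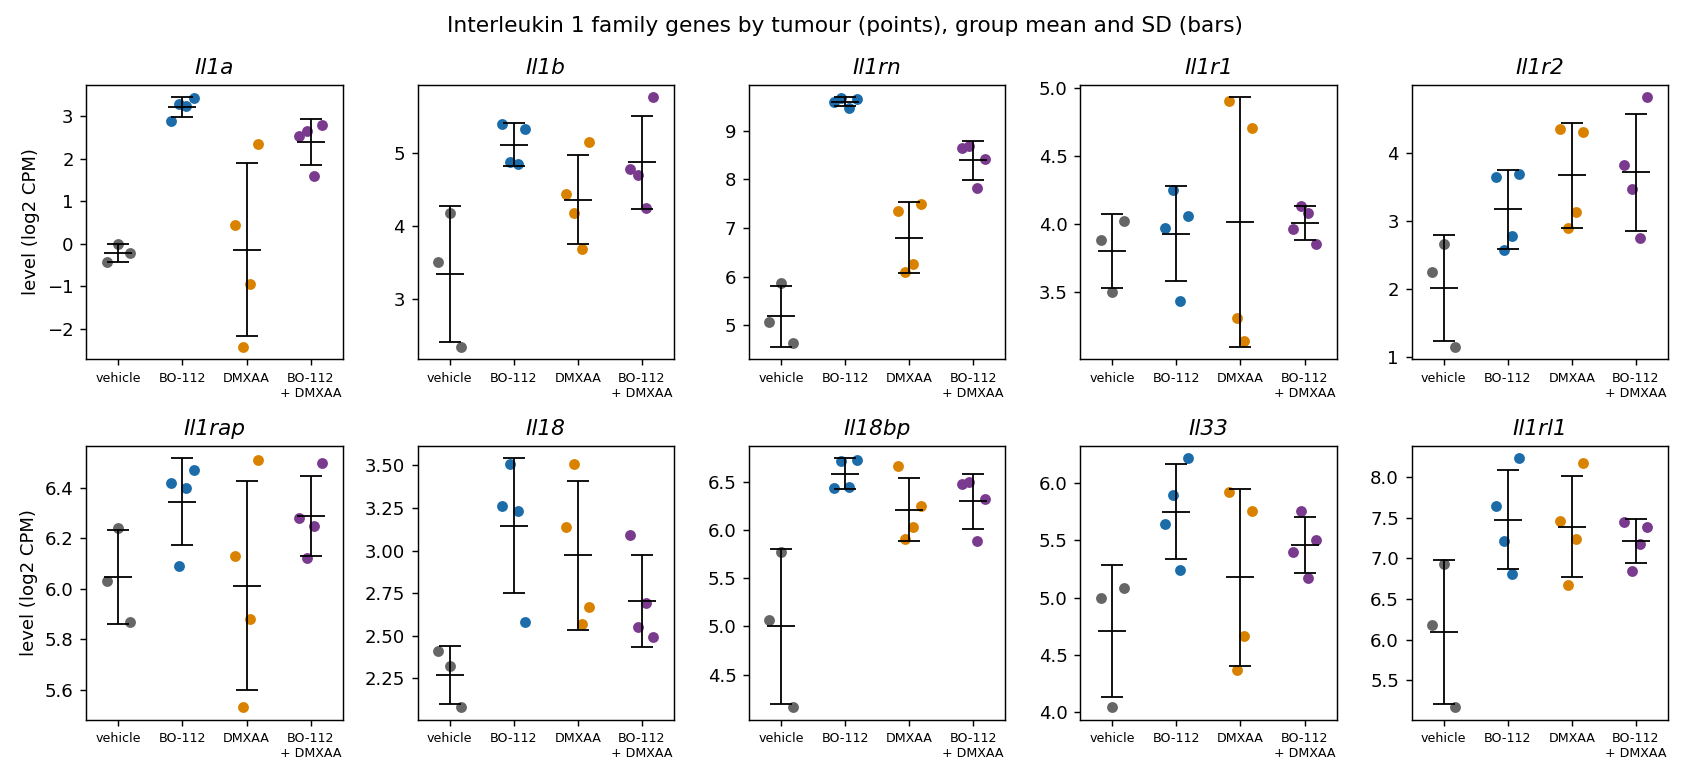
Level of each of the 10 genes (y axis, log2 CPM) in every tumour (points) by group, with the group mean and SD (bars). Il1rn stands at a mean of 9.59 with BO-112 and 5.19 with vehicle, while Il1r1 and Il1rap passed in none of the comparisons of all 15 libraries.

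Interleukin 1 alpha (Il1a, ENSMUSG00000027399.2) was nearly silent in vehicle tumours, at 0.747, 0.999 and 0.86 CPM. With BO-112 it stood at 7.38, 9.71, 9.41 and 10.8 CPM, above every vehicle tumour, a log2 fold change of 3.42 ± 0.74 with a limma adjusted p of 0.00658. With both agents it stood at 5.75, 6.23, 3.03 and 6.85 CPM, also above every vehicle tumour, and the change of 2.60 ± 0.74 had an adjusted p of 0.0884. With DMXAA the tumours scattered, at 1.36, 0.189, 0.52 and 5.09 CPM, or 28, 2, 7 and 99 reads, so that DMXAA 4 lay within the range of tumours given both agents and DMXAA 2 and DMXAA 3 lay below vehicle. The change with both agents passed without DMXAA 2 (adjusted p = 0.011) or DMXAA 4 (0.00852), in a fit to both agents and vehicle alone (0.0012) and with array quality weights (0.000673). With the 4 libraries rich in muscle left out, the BO-112 change was 3.64 with an adjusted p of 0.0581. The exons of Il1a overlap those of Gm14023 on the other strand, which stood at 0.64 CPM in vehicle and 0.458 CPM with BO-112.

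Interleukin 1 beta (Il1b, ENSMUSG00000027398.14) was already present in vehicle tumours at 11.4, 18.1 and 5.07 CPM. BO-112 tumours held 42.5, 29.5, 28.8 and 40.4 CPM, all above vehicle, a change of 1.78 ± 0.42 (adjusted p = 0.0115). Tumours with both agents held 27.7, 26.0, 19.0 and 54.4 CPM, the lowest of them just above the highest vehicle tumour, and the change of 1.54 ± 0.42 had an adjusted p of 0.0716. It passed without vehicle 2 (1.96, adjusted p = 0.0262), without replicate 3 of both agents (0.0495), without the libraries rich in muscle (0.0481) and with array quality weights (0.0404). DMXAA tumours held 21.7, 18.1, 12.8 and 35.4 CPM and overlapped vehicle, with a change of 1.02 ± 0.42 (adjusted p = 0.243). Vehicle 3 was the lowest of all 15 tumours for Il1b, and likewise for Il1rn, Il1r2, Il18, Il18bp and Il1rl1. That tumour enters every change from vehicle and the interaction of these genes. Without it the BO-112 change of Il1b was 1.28 with an adjusted p of 0.076. Summed monocyte and macrophage markers, 16 of 16 measured, were 4180 to 4850 CPM in vehicle and 4280 to 5440 CPM with BO-112. Within that list 4 of 16 genes rose with BO-112, among them Ly6c2 (3.54 ± 0.32), Plac8 (3.13 ± 0.31) and Cd14 (2.71 ± 0.32). Another 4 fell, among them the scavenger receptor Cd163 (-4.71 ± 0.62). Over all genes 7.64% were called higher and 4.31% lower. The part of monocytes and macrophages in the members' changes was not tested.

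The receptor antagonist Il1rn (ENSMUSG00000026981.16) showed the largest change of the 10 genes with BO-112 and with both agents. It stood at 33.3, 58.3 and 24.9 CPM in vehicle tumours and at 770, 813, 707 and 805 CPM in BO-112 tumours, a 21.2-fold rise (4.41 ± 0.34, adjusted p = 2.12e-06). Within BO-112 the 4 tumours lay closer together than for any other member, with an SD of 0.09 on the log2 scale. Tumours with both agents held 399, 412, 226 and 341 CPM (3.20 ± 0.34, adjusted p = 0.000147). DMXAA tumours held 163, 68.0, 77.3 and 181 CPM (1.61 ± 0.34, adjusted p = 0.033). The 4 groups thus followed one another without overlap, from BO-112 over both agents and DMXAA to vehicle. The step from BO-112 to both agents was 1.20 ± 0.32 with an adjusted p of 0.209, and that from both agents to DMXAA was 1.59 ± 0.32 with an adjusted p of 0.0344. The DMXAA call ended without vehicle 1, vehicle 3 or DMXAA 1 (adjusted p = 0.17, 0.205 and 0.0587), without BO-112 1, 3 or 4 (0.0515, 0.0512 and 0.0501), with total-read scaling (0.0864), with limma-voom (0.0555), without the libraries rich in muscle (0.12) and in a fit to DMXAA and vehicle alone (0.322). Its size ran from 1.34 to 1.95 over the fits that leave out a library. In whole tumours more cells that express a gene and more RNA per cell cannot be told apart.

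Neither signalling chain of the interleukin 1 receptor passed. Il1r1 (ENSMUSG00000026072.13) stood at 14.1 ± 2.52 CPM in vehicle (SD, n = 3), 15.5 ± 3.51 with BO-112, 18.7 ± 10.8 with DMXAA and 16.1 ± 1.39 with both agents (SD, n = 4 each). The changes from vehicle had 95% intervals from -0.64 to 0.89, from -0.55 to 0.98 and from -0.56 to 0.97. The subunit Il1rap (ENSMUSG00000022514.15) stood at 66.6 ± 8.58, 81.7 ± 9.17, 66.7 ± 19.1 and 78.3 ± 8.82 CPM in the same order, with changes of 0.30 ± 0.19, -0.03 ± 0.19 and 0.24 ± 0.19 and adjusted p-values of 0.345, 0.928 and 0.785. Il1rap was lower with DMXAA than with BO-112 only in the fit without DMXAA 4 (-0.50, adjusted p = 0.025).

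The decoy receptor Il1r2 (ENSMUSG00000026073.14), known from neutrophils and monocytes, stood at 4.73, 6.33 and 2.22 CPM in vehicle. It was at 12.5, 5.92, 6.82 and 12.8 CPM with BO-112, at 20.5, 7.43, 8.70 and 19.8 with DMXAA and at 14.1, 11.0, 6.69 and 28.1 with both agents. The DMXAA tumours and the tumours with both agents lay above every vehicle tumour, and BO-112 overlapped vehicle. The changes of 1.14 ± 0.50, 1.65 ± 0.50 and 1.69 ± 0.50 had adjusted p-values of 0.161, 0.136 and 0.108. The change with both agents passed with array quality weights (1.59, adjusted p = 0.0335) and without replicate 3 of both agents (2.01, 0.0488). BO-112 was the lowest of the treated groups, and no step between treated groups passed (adjusted p of 0.423 for DMXAA over BO-112 and 0.965 for both agents over DMXAA). The summed neutrophil markers, 14 measured of 16 listed, lay between 158 and 196 CPM in vehicle and between 654 and 721 CPM with BO-112. DMXAA tumours lay between 145 and 375 CPM, and tumours with both agents between 287 and 614 CPM. Clec4e makes up much of that sum with BO-112, at 306 ± 24.6 CPM. Mmp9 makes up most of it in vehicle, at 129 ± 36.2 CPM. With DMXAA Mmp9 stood at 66.3 ± 6.74 CPM and was called lower (-0.92 ± 0.18, limma adjusted p = 0.0258). In that comparison 4 of the 14 markers were called higher and 1 lower, beside 1.08% and 0.169% of all genes. The order of the groups differs on the mean log2 level of the list. That level lay between -0.11 and 0.8 in vehicle and between 2.74 and 3.56 with BO-112. It lay between 1.81 and 3.67 for DMXAA and between 2.92 and 4.37 for both agents, so that every treated group lay above vehicle. S100a8 had means of 6.04, 9.81 and 17.1 CPM in the treated groups in that order. The defining neutrophil gene Ly6g had 0 reads in all 3 vehicle tumours and in 2 of 4 BO-112 tumours, and 1 to 10 reads in tumours that received DMXAA. The part of neutrophils in these changes was not tested.

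**Figure D2:**
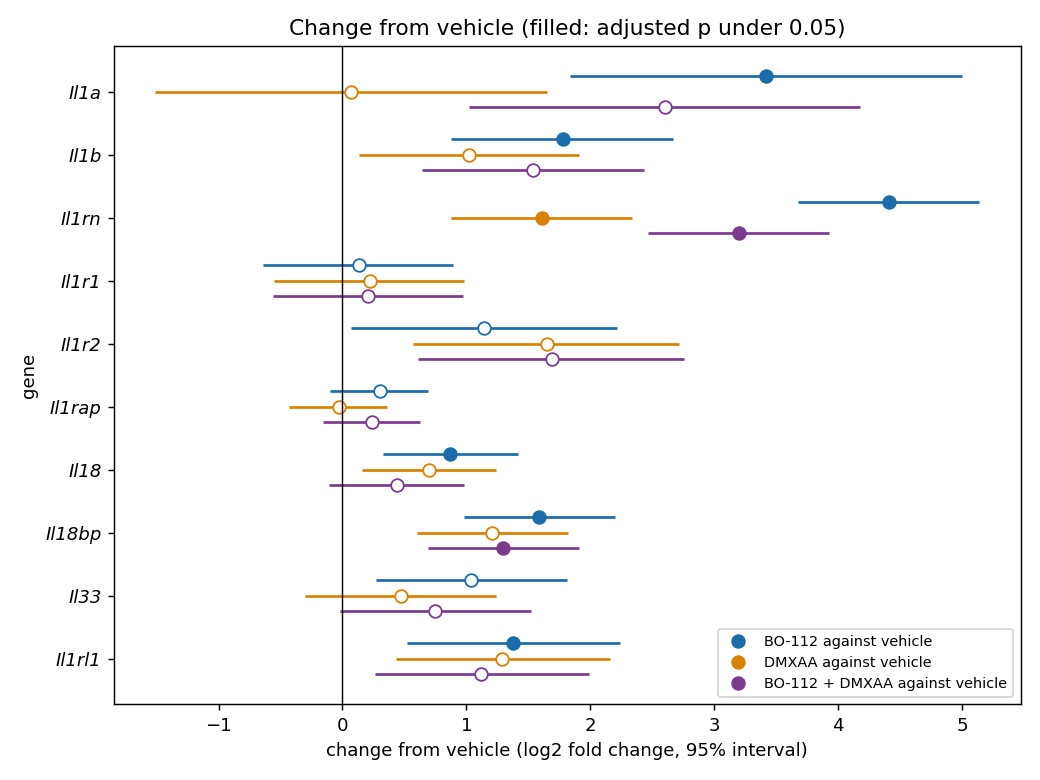
Log2 fold change from vehicle (x axis) with its 95% interval for each gene and treatment, from limma. Filled points passed an adjusted p of 0.05: 6 for BO-112, 1 for DMXAA and 2 for both agents, with Il1rn at 4.41, 1.61 and 3.20.

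Interleukin 18 (Il18, ENSMUSG00000039217.14) was low throughout, at 5.30, 4.99 and 4.24 CPM in vehicle and 71 to 189 reads per library over all tumours. It was at 9.57, 11.4, 9.41 and 5.97 CPM with BO-112, above every vehicle tumour (0.87 ± 0.25, adjusted p = 0.0367). DMXAA tumours ranged from 5.92 to 11.4 CPM and those with both agents from 5.61 to 8.53 CPM, also above vehicle, with changes of 0.70 ± 0.25 (adjusted p = 0.206) and 0.44 ± 0.25 (adjusted p = 0.603). The BO-112 call ended when any one of vehicle 1, 2 or 3 or BO-112 1, 2 or 3 was left out, with changes between 0.75 and 1.06 over the fits that leave out a library and adjusted p-values up to 0.139. It also ended with total-read scaling (0.0629) and without the libraries rich in muscle (0.176).

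Its antagonist Il18bp (ENSMUSG00000070427.5) stood at 33.5, 54.7 and 17.9 CPM in vehicle and at 86.8, 105, 87.7 and 107 CPM with BO-112, a change of 1.59 ± 0.29 (adjusted p = 0.00173). With both agents it was at 89.0, 90.3, 59.4 and 80.0 CPM (1.30 ± 0.29, adjusted p = 0.0217). With DMXAA it was at 101, 60.0, 65.2 and 76.0 CPM, above every vehicle tumour, with a change of 1.21 ± 0.29 that missed the threshold at an adjusted p of 0.0527 and passed without vehicle 2 (1.60, adjusted p = 0.00711). The treated groups overlapped one another. The call with both agents ended without vehicle 1 or vehicle 3 (adjusted p = 0.0729 and 0.109, the change then 1.33 and 0.88), without replicate 1, 2 or 4 of both agents (0.0795, 0.0738 and 0.0543), with total-read scaling (0.0512) and in a fit to both agents and vehicle alone (0.119). The exons of Il18bp overlap those of Numa1 on the other strand, and whether the authors counted by strand is not given in the sources used here. Numa1 was at 211 ± 28.3 CPM in vehicle (SD, n = 3) and 206 ± 6.11 with BO-112 (SD, n = 4), a change of -0.03 ± 0.12.

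Interleukin 33 (Il33, ENSMUSG00000024810.17) stood at 31.9, 16.5 and 33.8 CPM in vehicle and at 49.7, 59.6, 37.8 and 74.5 CPM with BO-112, all above vehicle, and the change of 1.04 ± 0.36 had an adjusted p of 0.0747. That adjusted p was 0.037 without DMXAA 2, 0.0491 without DMXAA 1 and 0.0108 with array quality weights. Endothelial markers, 9 of 9 measured, summed to 210 to 240 CPM in vehicle and 286 to 332 CPM with BO-112, and fibroblast markers, 10 of 10 measured, to 4810 to 7730 and 6190 to 9760 CPM. With BO-112 1 endothelial marker was called higher, Kdr, at 20.9 ± 4.18 CPM in vehicle and 85.7 ± 4.58 with BO-112. The means of Vwf, Tek and Tie1 were lower with BO-112. Among the fibroblast markers 1 was called higher, Dcn. For comparison, 7.64% of all genes were called higher. The part of these cells in the Il33 levels was not tested. DMXAA tumours were at 60.4, 20.6, 25.3 and 54.3 CPM (0.47 ± 0.36, adjusted p = 0.453), and tumours with both agents at 42.2, 54.1, 35.9 and 45.2 CPM (0.75 ± 0.36, adjusted p = 0.455). Its receptor Il1rl1 (ENSMUSG00000026069.16) was among the more abundant members, at 72.3, 122 and 35.9 CPM in vehicle. With BO-112 it reached 200, 148, 113 and 301 CPM, with an overlap of BO-112 3 and vehicle 2 (1.38 ± 0.40, adjusted p = 0.0373). DMXAA tumours held 176, 102, 151 and 287 CPM (1.29 ± 0.40, adjusted p = 0.147) and those with both agents 175, 116, 145 and 167 CPM (1.12 ± 0.40, adjusted p = 0.218). The BO-112 call of Il1rl1 ended without vehicle 3 (0.92, adjusted p = 0.2), vehicle 1 (0.0918), BO-112 1 (0.084), BO-112 2 (0.0539) or BO-112 4 (0.106). It also ended with total-read scaling (0.0626), without the libraries rich in muscle (0.0627) and in a fit to BO-112 and vehicle alone (0.121). Il1rl1 encodes both the membrane receptor and the soluble form that binds interleukin 33 as a decoy, and a count per gene does not separate them. Mast cell markers, cells known to carry this receptor, summed to 23.4 to 68.7 CPM in vehicle and 19.6 to 34.1 CPM with BO-112, and no marker of 8 was called in that comparison, where 11.9% of all genes were. Markers of regulatory T cells and type 2 innate lymphoid cells, 8 of 9 measured, summed to 58.5 to 97.7 CPM in vehicle and 90.8 to 127 CPM with BO-112. None of these 8 was called with BO-112 either. Il2ra had means of 22.2 ± 7.41 CPM in vehicle and 39.6 ± 9.36 with BO-112, and Foxp3 of 8.11 ± 3.04 and 8.64 ± 1.65. The part of these cells in the Il1rl1 levels was not tested.

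Per kilobase of annotated exon, mean levels in vehicle ran from 0.440 CPM for Il1a and 2.21 for Il1r1 to 11.7 for Il18bp. Il1rn was at 7.02 and Il1b at 6.03 on that scale. With BO-112 Il1rn reached 140 CPM per kilobase, Il18bp 31.9, Il1rl1 27.6, Il33 19.2, Il1b 18.5 and Il1a 4.72. Within each tumour the log2 ratio of Il1rn to Il1b was 1.85 ± 0.40 in vehicle (SD, n = 3) and 4.47 ± 0.28 with BO-112, 2.44 ± 0.43 with DMXAA and 3.51 ± 0.60 with both agents (SD, n = 4 each). The BO-112 range of 4.18 to 4.78 lay above all other groups and that of both agents, 2.65 to 3.99, above vehicle, at 1.55 to 2.30. The log2 ratio of Il1rn to Il1a was 5.40 ± 0.51 in vehicle, 6.39 ± 0.23 for BO-112, 6.94 ± 1.38 for DMXAA and 6.01 ± 0.25 for both agents, with DMXAA tumours from 5.15 to 8.49. The log2 ratio of Il18bp to Il18 was 2.73 ± 0.69 in vehicle. It was 3.44 ± 0.48 for BO-112, 3.24 ± 0.56 for DMXAA and 3.59 ± 0.36 for both agents, and every treated range overlapped vehicle. The log2 ratio of Il1r2 to Il1r1 was -1.78 ± 1.02 in vehicle, -0.76 ± 0.63 for BO-112, -0.35 ± 0.22 for DMXAA and -0.30 ± 0.97 for both agents. These ratios are descriptions and were not tested.

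**Figure D3:**
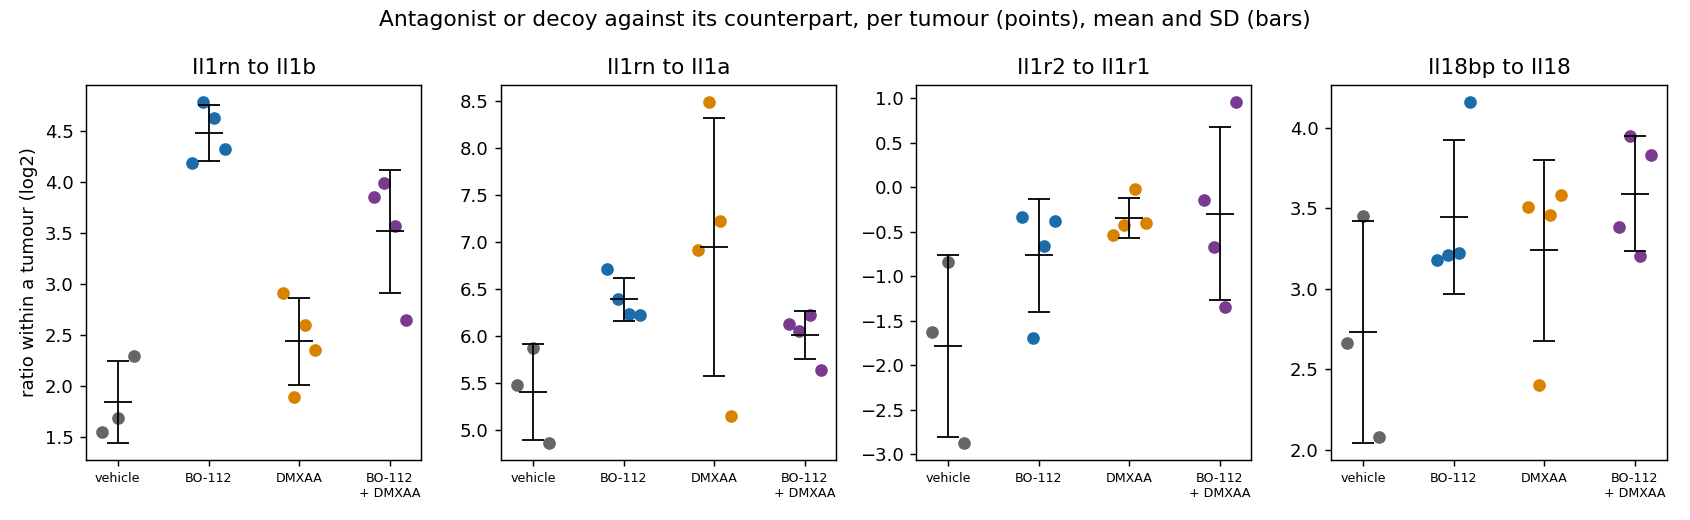
Log2 ratio of 2 genes within each tumour (y axis, points) by group, with mean and SD (bars). The ratio of Il1rn to Il1b separates BO-112, at 4.18 to 4.78, from every other group, while the ratio of Il18bp to Il18 overlaps between all groups.

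Adding DMXAA to BO-112 called 0 members and 0 of the 17712 genes by limma (0% of genes), also with limma-voom, while 1690 genes and 1 member, Il1rn, had an unadjusted p under 0.05. The lower Il1rn level with both agents, -1.20 ± 0.32, passed in a fit to these groups alone (adjusted p = 0.0115), with array quality weights (0.0311) and with DMXAA 2 and DMXAA 3 left out (0.0448). Il1a also lay lower in every tumour with both agents than in any BO-112 tumour, at -0.82 ± 0.69 (adjusted p = 0.805). Ranges lay apart for these 2 members, and for 10.2% of all genes.

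Adding BO-112 to DMXAA raised 1 member, Il1rn (1.59 ± 0.32, adjusted p = 0.0344), where 0.717% of all genes were called higher and 0.886% in either direction. Its range alone lay apart among the members, as did those of 7.97% of all genes. That call ended in 9 of the 15 fits that leave out a library, among them those without DMXAA 2 (1.35, adjusted p = 0.0674), DMXAA 3 (1.41, 0.125) and replicate 2 of both agents (1.49, 0.149), and with any one BO-112 library left out its adjusted p lay between 0.0503 and 0.0554. Without DMXAA 2 and DMXAA 3 together the change was 0.97 (adjusted p = 0.25), and it also missed the threshold with array quality weights (1.22, 0.0729). Il1a stood at 2.53 ± 0.69 (adjusted p = 0.0852) and passed without DMXAA 1 or DMXAA 4 (adjusted p = 0.0413 and 0.00592). Between the single agents 2 members were lower with DMXAA, Il1a (-3.35 ± 0.69, adjusted p = 0.00481) and Il1rn (-2.79 ± 0.32, adjusted p = 9.62e-05), where 11.2% of all genes were called lower and 21.4% in either direction. The ranges of these members lay apart, as did those of 22.7% of all genes. The Il1a difference ran from -4.18 to -2.59 over the fits that leave out a library, was -1.81 without DMXAA 2 and DMXAA 3 (adjusted p = 0.0155), and missed the threshold without the libraries rich in muscle (0.0741). Il18bp, Il33 and Il1rl1 differed between the single agents by -0.38 ± 0.26, -0.57 ± 0.33 and -0.09 ± 0.37, with 95% intervals from -0.94 to 0.19, from -1.28 to 0.14 and from -0.89 to 0.71.

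The interaction asks whether the agents add up on the log2 scale and is the effect of DMXAA in tumours given BO-112 minus its effect in tumours given vehicle. It was called for 1 member, Il1rn, at -2.82 ± 0.47 (adjusted p = 0.0118), where 1.15% of all genes were called lower and 1.35% in either direction. The single-agent changes of Il1rn summed to 6.02 and the change with both agents was 3.20, and the interaction passed in each of the 15 fits that leave out a library, at -3.16 to -2.54. All 10 members had a negative value, with a median of -1.12 beside 0.02 over all genes. By size, after Il1rn came Il1rl1 (-1.55 ± 0.55, adjusted p = 0.205), Il18bp (-1.5 ± 0.39, adjusted p = 0.073, and 0.0121 without vehicle 2) and Il1b (-1.26 ± 0.57, adjusted p = 0.326). Il18 followed (-1.14 ± 0.35, adjusted p = 0.132, and 0.0465 with the replicate block).

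**Figure D4:**
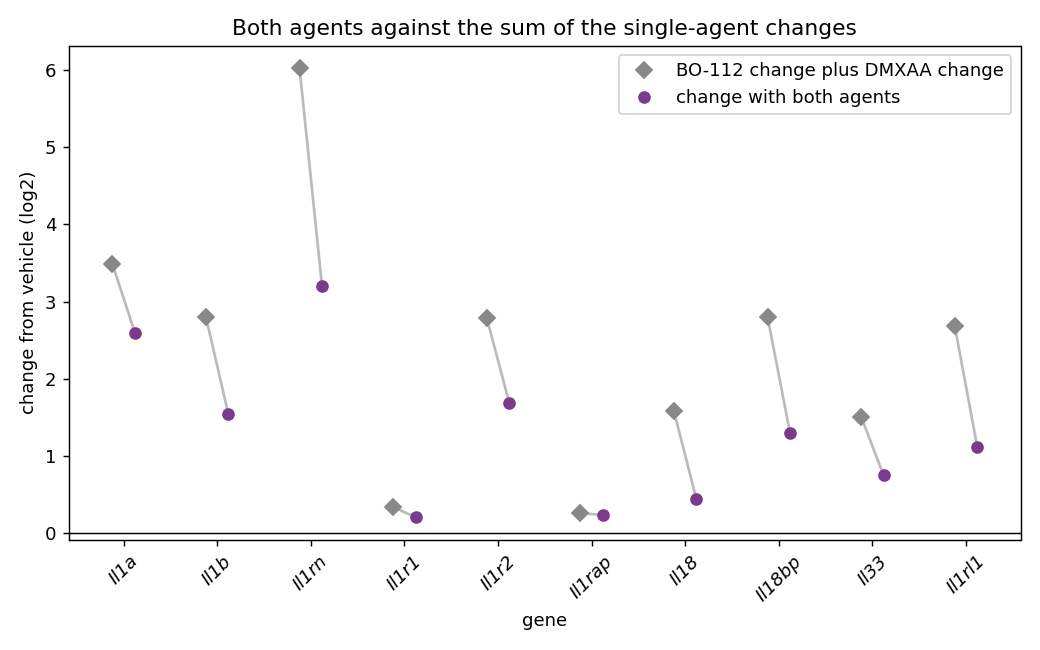
Change from vehicle (y axis, log2) for each gene: the sum of the BO-112 and DMXAA changes (diamonds) and the change measured with both agents (circles). Il1rn shows 6.02 against 3.20, and the circle lies below the diamond for all 10 genes, of which Il1rn passed the test of the difference.

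The DMXAA group divided in the same way for most members. In 9 of 10 members DMXAA 2 and DMXAA 3 both lay below DMXAA 1 and DMXAA 4, which was so for 32.8% of all genes, and Il18 was the exception. For Il1r1 the values were 29.8 and 26.0 CPM in DMXAA 1 and 4 against 9.92 and 8.83 CPM in DMXAA 2 and 3. These are the libraries with the excess of short transcripts, and their neutrophil markers summed to 145 and 186 CPM against 349 and 375 CPM in DMXAA 1 and 4. Endothelial markers, 9 of 9 measured, summed to 167 and 186 CPM against 352 and 235 CPM, and fibroblast markers, 10 of 10 measured, to 3220 and 5220 against 6780 and 6610 CPM. The sum of monocyte and macrophage markers went the other way, at 7580 and 5190 CPM against 4670 and 4010 CPM. Most of that sum was Lyz2, C1qa, C1qb and C1qc, with DMXAA means of 916, 1220, 841 and 753 CPM, so it need not hold for other markers of the list. The part of these differences in the members' levels was not tested. An alternative without these 2 libraries was chosen after the data were seen and kept only DMXAA 1 and DMXAA 4. Leaving out the lower tumours of 9 members raises the DMXAA mean of those members by itself. The DMXAA changes were then 2.24 for Il1rn (adjusted p = 0.00577) and 1.00 for Il1r1 (adjusted p = 0.0183), and the interaction of Il1a was -2.43 (adjusted p = 0.0285). These values are therefore no separate evidence of a change. Removing each library's trend with transcript length left the count of called members as it was in each comparison.

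**Figure D5:**
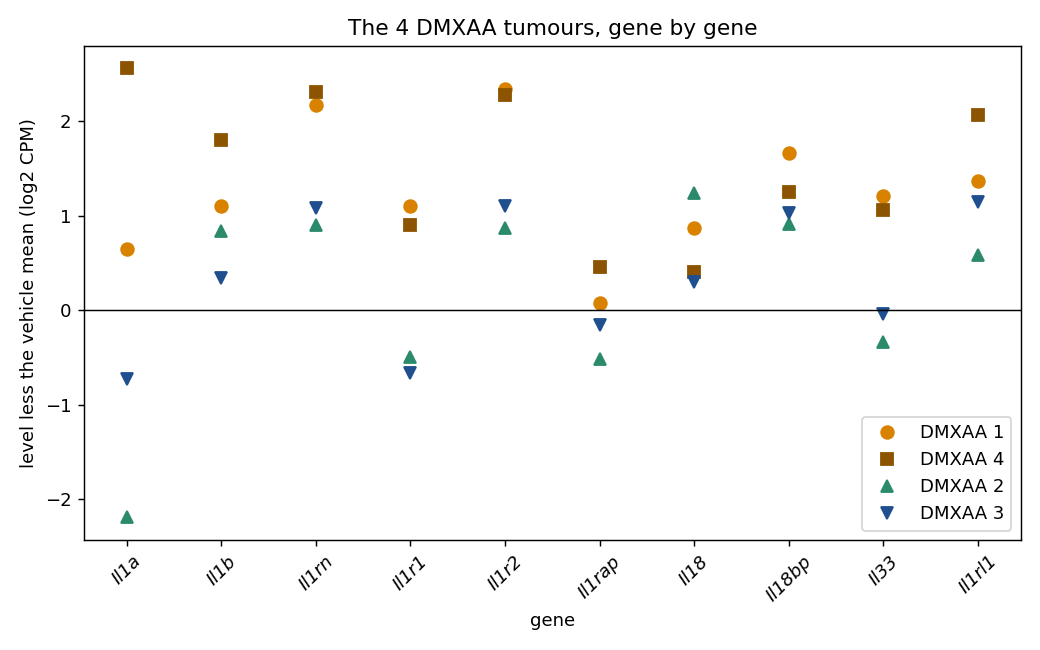
Level of each gene in the 4 DMXAA tumours less the mean of the vehicle tumours (y axis, log2 CPM). DMXAA 1 and DMXAA 4 lie above DMXAA 2 and DMXAA 3 for every gene but Il18, with Il1a spread from -2.19 to 2.56.

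Among relatives outside the 10 genes, 5 of 15 listed symbols were measured. The agonist Il1f9, known as interleukin 36 gamma, rose with every treatment, from 0.12 ± 0.0791 CPM in vehicle (SD, n = 3) to 2.52 ± 1.78 with BO-112, 3.58 ± 3.40 with DMXAA and 4.64 ± 4.16 with both agents (SD, n = 4 each). Its changes were 4.52 ± 0.92 (adjusted p = 0.00437), 4.64 ± 0.92 (0.0246) and 5.17 ± 0.92 (0.0048). Vehicle tumours ranged from 0.0297 to 0.178 CPM for this gene and DMXAA tumours from 0.566 to 8.15 CPM. The lowest vehicle value is the floor that a library without reads takes from the reads added before the log. The sizes of the Il1f9 changes therefore depend in part on that floor. Sigirr, an inhibitory relative of the receptor, was higher with DMXAA than with BO-112 (0.70 ± 0.20, adjusted p = 0.0279).

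The processing genes rose in 8 of 22 and fell in 1 with BO-112. The counts of this and the following lists stand beside 7.64% of all genes called higher and 4.31% lower with BO-112, 1.08% higher with DMXAA and 2.49% higher with both agents. Casp4, which cleaves gasdermin D on sensing cytosolic lipopolysaccharide, rose by 1.42 ± 0.13 (adjusted p = 3.95e-06), Ninj1, which ruptures the membrane of dying cells, by 1.56 ± 0.15 (1.14e-05) and the pore-forming Gsdmd by 0.75 ± 0.11 (0.000295), while the sensor Nlrp1b fell by 2.03 on the log2 scale (0.000576). Casp1, the protease for interleukin 1 beta and interleukin 18, also rose with BO-112 (1.04 ± 0.15, adjusted p = 0.00035). With DMXAA 2 of 22 rose, Ninj1 and Casp1 (0.73 ± 0.15, adjusted p = 0.0314). With both agents 4 rose, Casp1 among them (0.80 ± 0.15, adjusted p = 0.00813). The medians of the list were 0.12, 0.15 and 0.19, beside -0.04, 0.01 and -0.01 over all genes.

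Signalling genes downstream of the receptor rose in 8 of 19 with BO-112 and in 2 of 19 with both agents, with medians of 0.31 and 0.15. They included the kinase Irak2 (1.26 ± 0.18 with BO-112 and 0.83 ± 0.18 with both) and Irak3, a pseudokinase that restrains the pathway (1.96 ± 0.29 and 1.5 ± 0.29). With DMXAA the list had a median of -0.03. Genes that interleukin 1 is known to induce, most of which also answer to TNF and Toll-like receptors, rose in 16 of 22 with BO-112 (median 2.16), in 6 with DMXAA (0.96) and in 14 with both agents (1.5). The NF-kB inhibitors Nfkbia (1.48 ± 0.12) and Tnfaip3 (2.15 ± 0.21) and the acute phase gene Saa3 (4.51 ± 0.45) had the smallest adjusted p-values of the list with BO-112. Lcn2 (5.67 ± 0.75), Cxcl2 (5.02 ± 0.91) and Ccl20 (4.65 ± 0.90) had larger changes, from vehicle means of 0.372, 0.601 and 0.0318 CPM. Ccl20 ranged from 0.0297 to 0.0356 CPM in vehicle and from 0.432 to 1.71 CPM with BO-112. Its vehicle level is the floor set by the 0.5 reads added before the log, so the size of its change depends on that floor. With DMXAA the smallest adjusted p-values were those of Lcn2 (5.84 ± 0.75), the neutrophil chemokine Cxcl5 (4.46 ± 0.65) and Saa3 (3.06 ± 0.45), and Cxcl2, also called, changed by 4.35 ± 0.91. Genes known to follow interleukin 18 or interleukin 33 rose in 1 of 10 with BO-112, which was Gzmb (2.41 ± 0.41, adjusted p = 0.00117). That share is near the 7.64% of all genes called higher, and the median of that list was -0.04 with BO-112, -0.08 with DMXAA and -0.30 with both agents.

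The genes whose levels ran most like each member over the 15 libraries are given as a description, since all share group and depth. Among 12315 genes, Il1rn ran with the antiviral gene Rsad2 (Pearson r = 0.994), the interferon-inducible Ifi209 (0.994) and the C-type lectin Clec4e (0.993). Il18bp ran with Bst1 (0.976), the Fc receptor Fcgr1 (0.967) and Sirpb1b (0.964), and Il1b with Arg2 (0.956), Fos (0.941) and the chemokine Ccl3 (0.926). Il1r2 ran with the alarmin S100a8 (0.929), Slc2a3 and Tlr13 (0.922 each), and Il33 with Cyp26b1 (0.928) and Clmp (0.915). For Il1a the highest values were with Gnptab (0.97), Ttc37 (0.969) and Clip1 (0.968), and for Il1rap with Arih1 (0.958), Atp2b1 (0.941) and Steap2 (0.94). Il1rl1 (Basp1, 0.887), Il18 (Fam241a, 0.881) and Il1r1 (Ebf1, 0.861) had no gene above 0.9. Between members the values ran from -0.11 for Il18 with Il1rap to 0.88 for Il1a with Il1rn.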

How the data were processed

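Stranded mRNA libraries of 15 tumours were sequenced with paired reads of 150 bp, per the labels' protocols. The submitters' processing notes name STAR, edgeR, limma and mm39. The deposited table holds log2 CPM, with 0.5 reads added before the log and library sizes scaled by 0.85 to 1.08. Whole reads were recovered from it within 5.4e-09. The raw count table names no samples, so its 15 value columns were not used.

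Symbols came by Ensembl identifier from GENCODE M21 (17636 of 17712 genes), as did exon lengths. Promoters are RefSeq's on GRCm38.p6, not the authors' build, and all 10 members matched.

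A group-mean model with trend and robust moderation was fitted to all genes and libraries (limma 3.58.1, R 4.3.3) and tested on simulated data. The members, lists and tests were chosen with earlier results of these data known. All 10 members are named, then at most 3 genes per list and comparison by smallest adjusted p, the first called in the other direction, and the 3 genes most alike, of which some are not reported here. Il1f9 was measured under its older symbol. Replicate numbers showed no pairing of libraries: 5 of 21 same-number pairs correlated above 0.1, beside 13 of 63 other pairs (mean r of 0.0152 and -0.00509). P-values measure the spread between tumours that the labels call biological replicates. The alternatives were median-ratio and total-read scaling, a filter of 1 CPM in 4 libraries, limma-voom, a replicate block, the compared groups alone, array weights, length-trend removal and omitted libraries.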

Additional observations from a re-analysis of the deposited data

Results flagged for a closer look

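Il1rn differed in its response to DMXAA depending on BO-112. The change with DMXAA over vehicle was 1.61 ± 0.34 (limma adjusted p = 0.033), a call that held in 9 of 15 fits that leave out a library. Tumours with both agents stood at -1.20 ± 0.32 against BO-112, which was not called (0.209). The interaction of -2.82 had an adjusted p of 0.0118 by limma. The BO-112 tumours lay between 707 and 813 CPM. No tumour of the groups of 4 stood far enough from its group to be singled out for any of the 10 genes, in 30 checks where chance gives about 1 in 20.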

How the results depend on the processing

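Of 13 member calls over the 7 comparisons, 7 held in each of the 15 fits that leave out 1 library: Il1a, Il1rn and Il18bp with BO-112, Il1rn with both agents, Il1a and Il1rn between the single agents, and the interaction of Il1rn. No call changed sign in the 25 alternatives. With a library left out, the count of called members ran from 3 to 7 for BO-112 against vehicle, 0 to 2 for DMXAA, 1 to 4 for both agents, 0 to 0 for both against BO-112, 0 to 2 for both against DMXAA, 2 to 3 for DMXAA against BO-112 and 1 to 2 for the interaction. The lowest BO-112 count, 3, came without vehicle 3.

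Without the 4 libraries high in muscle genes the counts were 3 for BO-112, 0 for DMXAA, 3 for both agents (Il1b gained), 0 for both against DMXAA and 1 for DMXAA against BO-112. Total-read scaling gave 4 for BO-112, 0 for DMXAA and 1 for both agents, and limma-voom 0 for DMXAA. The compared groups alone gave 5 for BO-112, 0 for DMXAA, 2 for both agents (Il1a gained and Il18bp lost), 1 for both against BO-112 and 0 for both against DMXAA. Array weights gave 5 for both agents, 1 for both against BO-112 and 0 for both against DMXAA, and added Il33 with BO-112 (limma adjusted p = 0.0108). The replicate block gave 3 for DMXAA, 4 for both agents and 2 for the interaction, from numbers that showed no pairing of the libraries. It also added Il1b for DMXAA against BO-112 (-0.76, limma adjusted p = 0.0475). Without DMXAA 2 and DMXAA 3, added after the data were seen, the counts were 2 for DMXAA, 1 for both against BO-112, 0 for both against DMXAA and 2 for the interaction. The DMXAA tumours kept there were the higher ones for every member but Il18, which by itself raises their DMXAA mean. That fit also added Il33 with BO-112 (limma adjusted p = 0.0163), Il1a with both agents (0.000741) and Il1r1, higher with DMXAA than with BO-112 (0.87, 0.0112). The causes were not tested.

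Total-read scaling moved the median of all genes by -0.16 for BO-112, -0.13 for DMXAA and 0.21 for the interaction. The share of called genes that were higher went from 63.9% to 34% for BO-112, from 47.8% to 64.6% for DMXAA against BO-112 and from 14.6% to 38.6% for the interaction. Depth limits Il1a most, with 2 to 28 reads in the vehicle tumours and DMXAA 1 to 3. The interaction could not be fitted to 2 groups.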
